A study of Mus musculus with 8 samples.

Results

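The family of miR-15, miR-16, miR-195a and miR-497a was examined by miRNA sequencing (miRNA-Seq) in primary articular chondrocytes of the mouse, which build and maintain joint cartilage. The family was defined by name, as the entries mmu-miR-15a-5p, mmu-miR-15b-5p, mmu-miR-15b-3p, mmu-miR-16-5p, mmu-miR-195a-5p, mmu-miR-195a-3p, mmu-miR-497a-5p and mmu-miR-497a-3p, written below without the species prefix. All 8 names were present among the 1966 listed miRNAs, and 7 of the 8 had at least 1 read in at least 1 library. The cells came from the femoral head of wild-type mice aged 3 weeks and were kept in high-glucose DMEM with fetal bovine serum. They then received either vehicle (n = 4 libraries) or IL-1β at 1 ng/ml (n = 4 libraries) for 24 h. IL-1β (interleukin-1β) is a cytokine under which chondrocytes make cartilage-degrading proteases. Strain and sex were not given in the sources used here. Neither was it given whether libraries came from separate animals, so p-values measure the spread between libraries, which may be technical.

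miRNAs are short RNAs released from the 5′ side (5p arm) or the 3′ side (3p arm) of a precursor folded into a hairpin. Loaded into an Argonaute protein, a miRNA pairs with target mRNAs mainly through its seed, the bases 2 to 8 from the 5′ end, and lowers their translation or stability. The family is known for restraining the cell cycle, through targets that include D-type and E-type cyclins, and for repressing the survival factor Bcl2. miR-15a and miR-16 are also known as a tumor suppressor pair whose locus is often lost in chronic lymphocytic leukemia.

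The 5p members were grouped as a family by their shared seed. All 8 members matched a mature sequence in RefSeq (GRCm38.p6). The 5p sequences are shown with the seed in capitals, because the seed is what joins members that otherwise differ in their 3′ part.
miR-16-5p: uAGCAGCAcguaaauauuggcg
miR-195a-5p: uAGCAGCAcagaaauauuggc
miR-15a-5p: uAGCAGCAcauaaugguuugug
miR-15b-5p: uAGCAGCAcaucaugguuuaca
miR-497a-5p: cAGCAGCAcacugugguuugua

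All 5 had the seed AGCAGCA, which was held by 10 of the 1675 listed miRNAs with a RefSeq sequence. Aligned from the 5′ end without gaps, miR-16-5p and miR-195a-5p were the closest pair, differing at 2 of 21 bases (90.5% identity). miR-15a-5p and miR-15b-5p differed at 4 of 22 bases, and miR-16-5p and miR-497a-5p were the most distant pair, with 11 of 22 bases different. How reads shared by near-identical miRNAs were counted was not stated, so that the counts of miR-195a-5p and miR-16-5p are uncertain to that extent. The opposite arms had other seeds, again in capitals, and are shown because one of them, miR-195a-3p, was as abundant as its 5p partner.
miR-195a-3p: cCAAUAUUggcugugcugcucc
miR-15b-3p: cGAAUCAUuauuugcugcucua
miR-497a-3p: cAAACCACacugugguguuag

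The hairpins lie in 3 pairs (GRCm38 coordinates, GENCODE annotation). Mir15b (chr3:69009772-69009835, plus strand) and Mir16-2 (chr3:69009902-69009996, plus strand) are 66 bases apart in an intron of Smc4, which encodes a condensin subunit needed for chromosome condensation. Mir15a (chr14:61632027-61632110, minus strand) and Mir16-1 (chr14:61631880-61631972, minus strand) are 54 bases apart within the long non-coding RNA gene Dleu2, the former in an intron and the latter overlapping an annotated exon. Mir497 (chr11:70234717-70234800, plus strand) and Mir195a (chr11:70235042-70235135, plus strand) are 241 bases apart. Mir195a was outside other annotated genes, whereas Mir497 overlapped Mir497b on the opposite strand. miR-497b had 0 reads in all 8 libraries, which allows up to 0.377 CPM (3 counts of the 7959576 in all libraries). miR-16-5p is the same sequence in Mir16-1 and Mir16-2, so its reads cannot be assigned to Smc4 or Dleu2. Whether reads that fit several places were left out, counted once or counted at each place was not stated. The level of miR-16-5p, its rank, its share of the family and its excess over other members, given below, are uncertain to that extent.

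Library totals ranged from 616475 to 1568367 counts, and 1 read therefore equaled between 0.638 and 1.62 CPM (counts per 1000000 counts of the library). The cartilage miRNAs miR-140 and miR-455 (4 markers, all detected) summed to 153547 to 168966 normalized CPM with vehicle and 132602 to 155815 with IL-1β. Of 8 haematopoietic markers, including the erythroid miR-144 and miR-451a, 6 were at 0, and the sum was 43.5 to 62.5 and 25.6 to 45.5 normalized CPM, nearly all of it miR-150-5p. All 3 muscle markers were at 0, and 1 of 2 endothelial markers had a read, with 8 reads in all. Of 5 epithelial markers 4 had a read, with miR-200c-3p at 0. Their sum was higher in every IL-1β library (1.60 to 10.2 normalized CPM) than in any vehicle library (0 to 1.56), on 20 reads in all. The 1.60 of IL-1β replicate 1 and the 1.56 of vehicle replicate 4 were each 1 read, set apart only by library totals. The part of these markers in the values of the family was not tested. IL-1β replicate 4 stood apart. Over the 195 miRNAs that averaged 50 counts or more, its deviations from the other libraries of its group had an SD of 0.40 on the log2 scale, against 0.15 to 0.23 for the other 7.

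In these cells miR-16-5p held most of the counts of the family, and no member was called as changed by IL-1β. The 8 members together took 11533 of all counts, or 0.145%. Their sum was 1352, 1565, 1566 and 1361 normalized CPM in vehicle replicates 1 to 4, and 1436, 1292, 1317 and 1505 in the IL-1β libraries in the same order. The groups overlapped, with means of 1461 ± 120.5 and 1388 ± 101 (SD, n = 4), and the IL-1β mean was 1348 ± 77.3 (SD, n = 3) when replicate 4 was left out.

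miRNAs were tested one by one for a response to IL-1β. Of the 564 miRNAs tested, 1.95% were called (quasi-likelihood test of edgeR, adjusted p under 0.05 by Benjamini-Hochberg, absolute log2 fold change over 0.3), against 0 of the 7 members tested. By direction, 1.42% of all miRNAs tested were called higher and 0.532% lower with IL-1β, and 0 members in either direction. With DESeq2 the number of members called was also 0, but miR-15b-3p and both arms of miR-195a had no adjusted p there and could not be called. At an unadjusted p under 0.05 there was 1 member (miR-195a-5p) in edgeR, beside 11.2% of all miRNAs tested, and 0 in DESeq2. The log2 fold change was above 0 in 2 members and below 0 in 5, with a median of -0.067, against 0.0063 over all miRNAs tested. In none of the 7 did the IL-1β libraries separate from the vehicle libraries, as they did in 7.62% of all miRNAs tested.

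**Figure D1:**
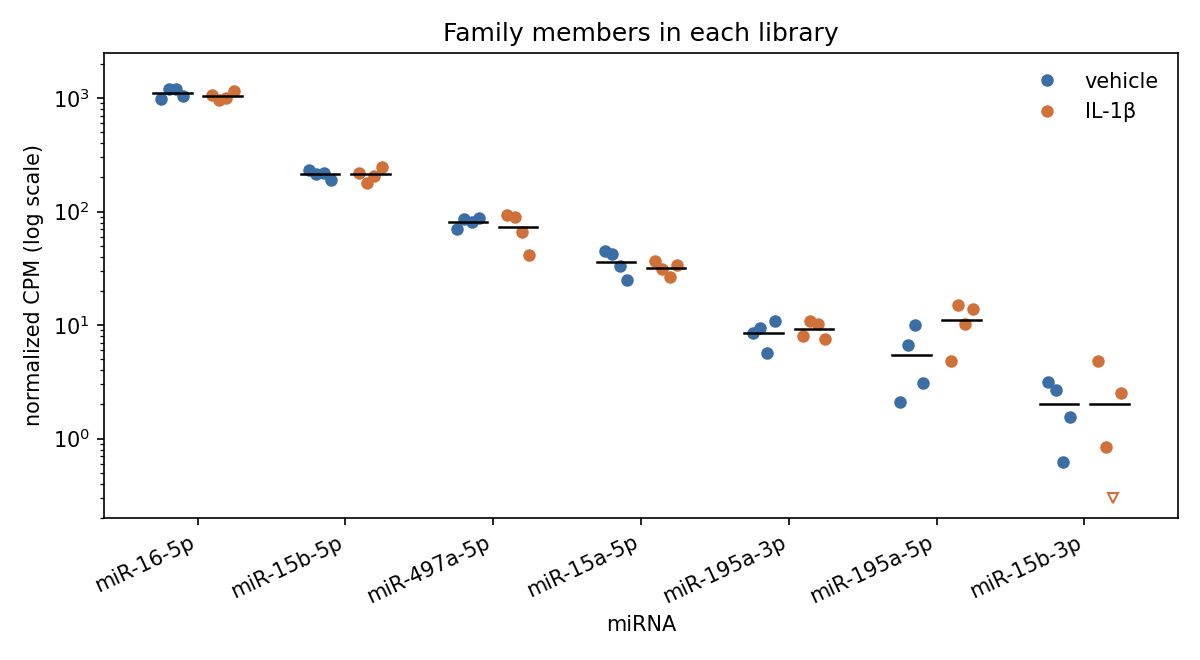
Normalized CPM (y axis, log scale) of the 7 members with reads (x axis) in each library, with replicates 1 to 4 from left to right within a group and a black line at the group mean. Vehicle and IL-1β libraries overlapped for every member, and the open triangle marks a library with 0 reads (miR-15b-3p in IL-1β replicate 3), drawn near the lower edge.

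miR-16-5p, the family member found in nearly all tissues, was the most abundant. Among the 1003 miRNAs with a read it ranked 56 by its mean over the 8 libraries, 1081 normalized CPM. It was at 992, 1205, 1214 and 1044 normalized CPM in vehicle replicates 1 to 4, and at 1072, 967, 998 and 1157 in IL-1β replicates 1 to 4. The highest values were in vehicle replicates 2 and 3, and the lowest was in IL-1β replicate 2. The means of the vehicle and IL-1β libraries were 1114 ± 112 and 1048 ± 84.7 (SD, n = 4). The log2 fold change was -0.090 (SE 0.0908), at an adjusted p of 0.760 in edgeR. Its 95% interval of -0.28 to 0.097 corresponds to 0.825-fold to 1.07-fold, inside the log2 limit of 0.3 on either side. This bound did not hold in 4 of the 8 fits with 1 library left out (without vehicle replicate 1, vehicle replicate 4, IL-1β replicate 1 or IL-1β replicate 4), in which the interval reached below -0.3, to -0.36 at the lowest. The log2 fold change in the 8 fits ranged from -0.15 to -0.046, and without IL-1β replicate 4, the library that stood apart, it was -0.15 (95% interval -0.31 to 0.014).

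miR-15b-5p is cut from the hairpin next to Mir16-2 in Smc4. It was at 231, 214, 221 and 190.04 normalized CPM in vehicle replicates 1 to 4, and at 218, 177, 206 and 249 in IL-1β replicates 1 to 4. The IL-1β group held both the lowest and the highest library, replicates 2 and 4. The means were 214 ± 17.5 and 212 ± 29.9 (SD, n = 4) and the log2 fold change was -0.023 (95% interval -0.26 to 0.21, edgeR adjusted p = 0.992). Its direction was not fixed, as the log2 fold change was 0.0093 without vehicle replicate 1 and 0.032 without IL-1β replicate 2. Without IL-1β replicate 4 it was -0.12, with an interval of -0.34 to 0.088, and the interval also reached below -0.3 without vehicle replicate 4.

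miR-15a-5p, from the Dleu2 locus, was 6.07 times scarcer than miR-15b-5p by summed counts and lower than it in all 8 libraries. It was at 44.5, 42.7, 33.1 and 24.9 normalized CPM with vehicle and at 36.8, 31.2, 26.3 and 33.8 with IL-1β, in the order of replicates 1 to 4. All IL-1β libraries lay inside the range of the vehicle libraries. The means were 36.3 ± 9.10 and 32.03 ± 4.45 (SD, n = 4) and the log2 fold change was -0.22 (95% interval -0.64 to 0.20, edgeR adjusted p = 0.757), and -0.34 to -0.12 with 1 library left out.

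miR-497a-5p was the third most abundant member, at 69.98, 85.4, 81.2 and 87.2 normalized CPM in vehicle replicates 1 to 4. With IL-1β, in the same order, it was at 92.8, 90.2, 65.8 and 41.4. IL-1β replicates 1 and 2 were above every vehicle library and replicates 3 and 4 below every vehicle library, so that the spread was wider with IL-1β. The coefficient of variation was 9.56% with vehicle and 33.2% with IL-1β (n = 4). The means were 80.96 ± 7.74 and 72.5 ± 24.1 (SD, n = 4) and the log2 fold change was -0.15 (95% interval -0.52 to 0.22, edgeR adjusted p = 0.805). Without IL-1β replicate 4, the library that stood apart, the log2 fold change turned to 0.050 (edgeR adjusted p = 0.942) and the IL-1β mean was 82.9 ± 14.9 (SD, n = 3).

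miR-195a-5p, whose hairpin neighbors Mir497, was the member with the largest log2 fold change and also one of the scarcest. It had 2, 10, 16 and 2 reads in vehicle replicates 1 to 4, equal to 2.12, 6.67, 9.996 and 3.12 normalized CPM. The IL-1β libraries, in the same order, had 3, 18, 7 and 11 reads, equal to 4.80, 15.2, 10.2 and 13.8 normalized CPM. In both groups the higher read numbers included the deepest libraries, and IL-1β replicate 1, with the smallest total of all, lay inside the vehicle range while the other 3 lay above it. The means were 5.48 ± 3.59 and 10.996 ± 4.63 (SD, n = 4). The log2 fold change was 0.88 (SE 0.420, 95% interval 0.017 to 1.75), at an unadjusted p of 0.0459 and an adjusted p of 0.427 in edgeR. With 1 library left out it ranged from 0.61, without IL-1β replicate 2, to 1.36, without vehicle replicate 3, and without IL-1β replicate 4 the interval was -0.14 to 1.74. In DESeq2 the log2 fold change was 0.93 with an unadjusted p of 0.0890 and no adjusted p, as DESeq2 set the miRNA aside for its low counts. With 30 reads in all vehicle libraries and 39 in all IL-1β libraries, a difference was not established at this depth. miR-16-5p, which differs from miR-195a-5p at 2 bases, had 127 times as many reads.

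**Figure D2:**
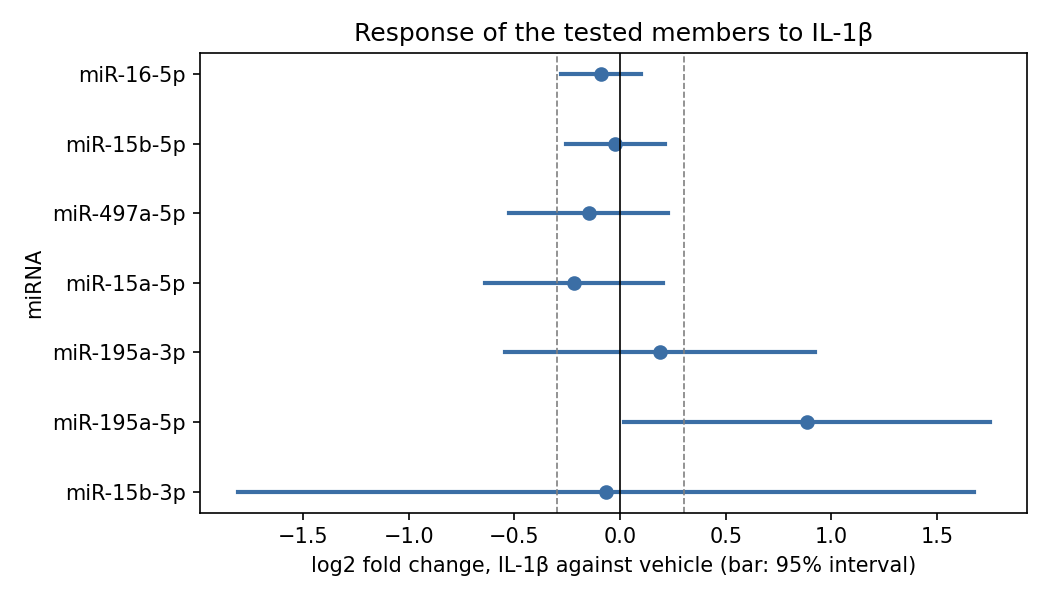
Log2 fold change of IL-1β against vehicle (x axis) for the 7 tested members (y axis, from the most to the least abundant), with points at the edgeR estimate, bars for the 95% interval, a solid line at 0 and dashed lines at the limits of -0.3 and 0.3. With all 8 libraries the intervals of miR-16-5p and miR-15b-5p lay within the limits, which they did not without IL-1β replicate 4, and that of miR-195a-5p ran from 0.017 to 1.75 but its adjusted p was 0.427.

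The order of levels among members was then compared within libraries. Mature members are 21 or 22 nt long and a read covers the whole miRNA, so that counts were set side by side without division by length. Ligation and amplification favor some sequences, so the order is one of reads and not of molecules. miR-16-5p, with its 2 hairpins and the open question of how their shared reads were counted, exceeded miR-15b-5p in 8 of 8 libraries, by 4.29 to 5.64 times. miR-15b-5p exceeded miR-497a-5p in 8 of 8, by 1.96 to 6.03 times, and miR-497a-5p exceeded miR-15a-5p in 8 of 8, by 1.22 to 3.50 times. miR-15a-5p in turn exceeded both arms of miR-195a in every library. The order of the miR-195a arms themselves varied between libraries.

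Among the reads of the 5p members the groups differed by less than the spread between libraries, except for miR-195a-5p. miR-16-5p took 76.7% ± 1.78 of them in vehicle libraries and 76.1% ± 0.9503 in IL-1β libraries (SD, n = 4). miR-15b-5p took 14.8% ± 1.63 and 15.4% ± 1.19, and miR-15a-5p took 2.51% ± 0.660 and 2.32% ± 0.245 (SD, n = 4). The share of miR-497a-5p was 5.60% ± 0.594 in vehicle libraries and 5.34% ± 1.92 in IL-1β libraries (SD, n = 4), and its lowest value, 2.77%, was in IL-1β replicate 4. miR-195a-5p took 0.365% ± 0.217 and 0.807% ± 0.355 (SD, n = 4), and its shares were not tested.

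**Figure D3:**
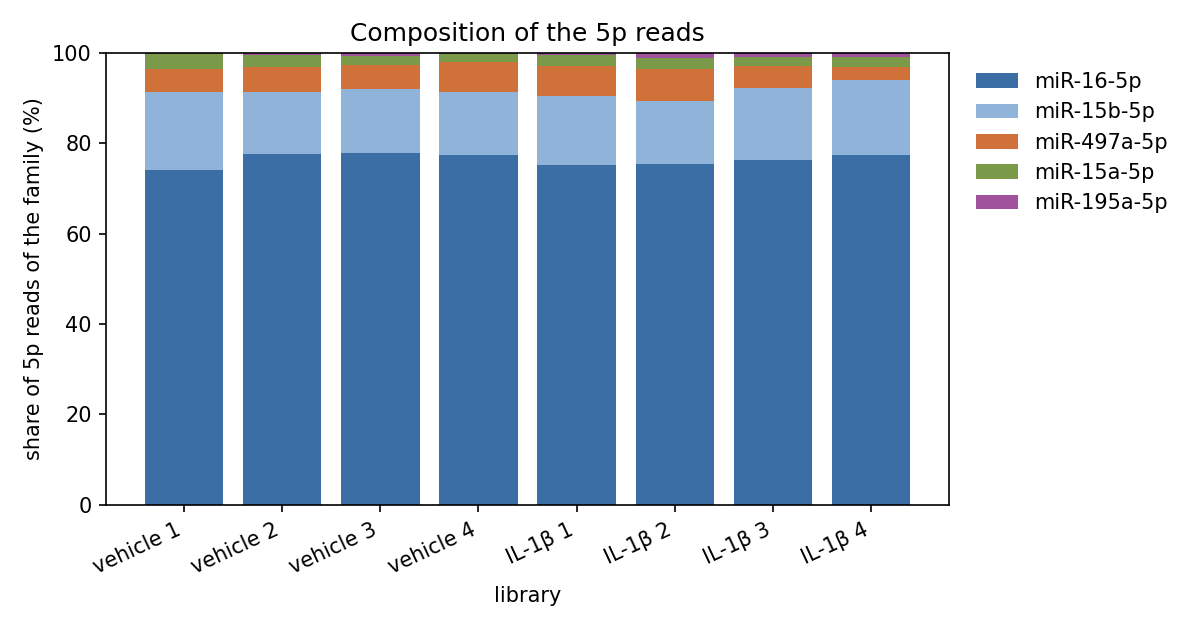
Stacked shares of the 5 members with the common seed (y axis, percent of their summed counts) in each of the 8 libraries (x axis). miR-16-5p took 74.1% to 77.8% in every library, and the band of miR-497a-5p was narrowest in IL-1β replicate 4, at 2.77%.

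The arms of each hairpin were compared next, since usually one arm is retained and the other degraded. In Mir15b nearly all reads came from the 5p arm, with 1700 of 1715 (99.1%, Wilson 95% interval 98.6% to 99.5%, for counting error only). miR-15b-3p had 3, 4, 1 and 1 reads in vehicle replicates 1 to 4 and 3, 1, 0 and 2 in IL-1β replicates 1 to 4. At 2.01 ± 1.14 and 2.04 ± 2.12 normalized CPM (SD, n = 4) no difference was detectable at this depth (log2 fold change -0.067, 95% interval -1.81 to 1.67, edgeR adjusted p = 0.992). In Mir15a the 5p arm took 280 of 287 reads (97.6%, Wilson 95% interval 95.1% to 98.8%). In Mir497 the 5p arm had 623 reads and miR-497a-3p had 0 in all 8 libraries, so that the 5p arm was at least 208-fold higher, taking 3 counts over all libraries as the most that an observed 0 allows.

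Mir195a differed from these hairpins in that its arms gave equal numbers of reads, 69 each (50% from the 5p arm, Wilson 95% interval 41.8% to 58.2%, an interval that does not reach those of Mir15b and Mir15a). miR-195a-3p had 8, 14, 9 and 7 reads in vehicle replicates 1 to 4 and 5, 13, 7 and 6 in IL-1β replicates 1 to 4. It exceeded miR-195a-5p in 4 libraries, was below it in 3 and equal to it in 1. Its level was 8.59 ± 2.22 and 9.18 ± 1.67 normalized CPM (SD, n = 4) and the log2 fold change was 0.19 (95% interval -0.54 to 0.92, edgeR adjusted p = 0.886). The 5p share went from 44.1% of 68 reads with vehicle (Wilson 95% interval 32.9% to 55.9%) to 55.7% of 70 reads with IL-1β (44.1% to 66.8%), and these intervals overlapped.

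Ratios of 2 miRNAs within a library do not depend on how libraries are scaled to each other where both have reads, and 5 were computed to look for a change with IL-1β. Those of the arms of miR-497a and of miR-15b are not read as tests. miR-497a-3p was at 0 in all libraries, and miR-15b-3p was at 0 in IL-1β replicate 3 and at 1 read in 3 others, so that the added 0.5 and the depth of the 5p arm set much of the value. Each was a log2 ratio of counts plus 0.5, compared by an exact permutation test (two-sided, 70 arrangements, smallest possible p 0.0286) with adjustment over the 5 as planned. Over the 3 with reads of both miRNAs in every library, a choice made after seeing the data, the adjusted p ranged from 0.343 to 0.486. Even there miR-195a-5p had only 2, 2 and 3 reads in vehicle replicate 1, vehicle replicate 4 and IL-1β replicate 1. The added 0.5 therefore bears on its ratios too. The ratio of miR-195a-5p to miR-497a-5p, which are neighbors on chromosome 11, was -4.73, -3.61, -2.98 and -4.50 in vehicle replicates 1 to 4 and -4.06, -2.54, -2.60 and -1.54 in IL-1β replicates 1 to 4. IL-1β replicates 2, 3 and 4 were above all vehicle libraries and replicate 1 was not. The difference of 1.27 exceeded the SD of each group but did not pass the test (exact permutation p = 0.143, adjusted p = 0.381). It was 0.89 without IL-1β replicate 4, 1.60 without vehicle replicate 3 and 1.73 without IL-1β replicate 1, where the exact permutation p of 0.0571 was the smallest that 7 libraries allow. The ratio of the arms of miR-195a differed by 0.91 (exact permutation p = 0.229, adjusted p = 0.381), and by 0.57 without vehicle replicate 1 and 1.43 without vehicle replicate 3. For miR-15b-5p to miR-16-5p, whose hairpins Mir15b and Mir16-2 are neighbors in Smc4, the difference was 0.069 (exact permutation p = 0.486, adjusted p = 0.607). The difference of miR-15b-5p to miR-16-5p was 0.029 without vehicle replicate 2 and 0.16 without vehicle replicate 1, the latter again at the smallest exact permutation p of 0.0571.

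**Figure D4:**
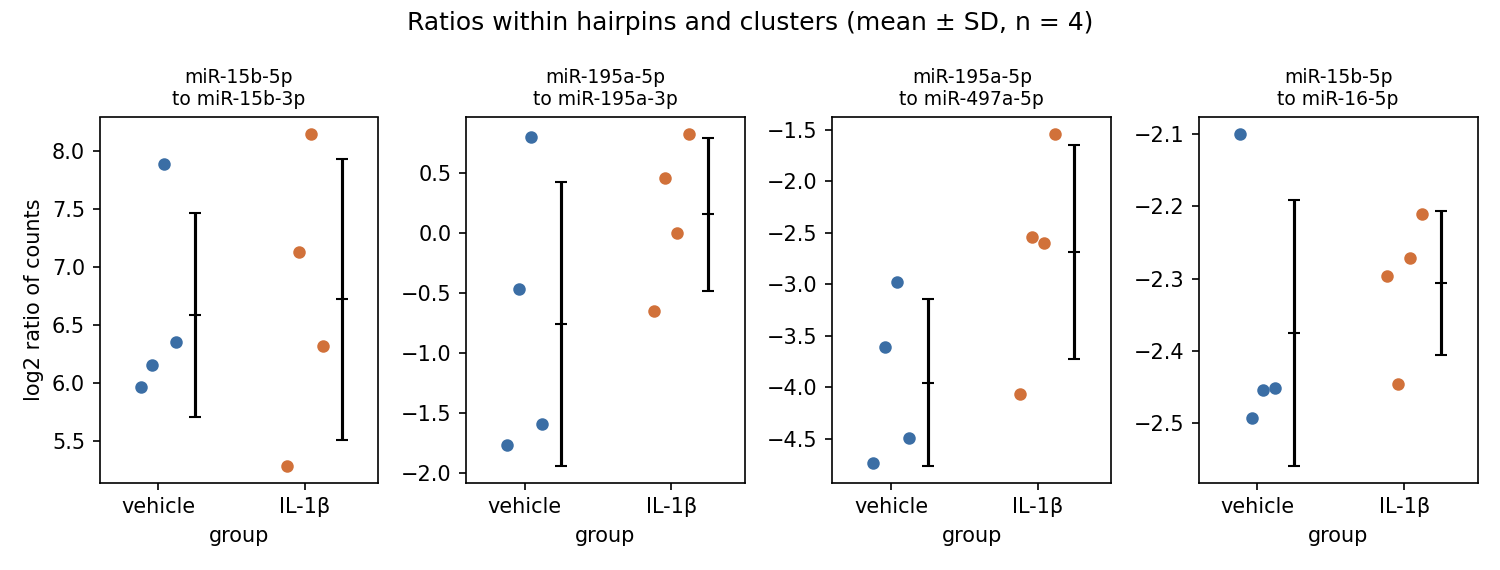
Log2 ratio of counts (y axis, a separate range for each panel) in vehicle and IL-1β libraries (x axis), for 4 pairs of miRNAs, with a point per library in the order of replicates 1 to 4 and bars for the mean ± SD (n = 4). The ratio of miR-195a-5p to miR-497a-5p had the largest difference between group means, 1.27, and the groups overlapped in all 4 panels.

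Variation between libraries was compared across the 5p members as a description, without a test, over 8 libraries that share the same depths and scaling. miR-15b-5p had a Pearson r of 0.52 with both miR-16-5p and miR-15a-5p (log2 of normalized CPM + 1). miR-15a-5p and miR-16-5p, from the same Dleu2 locus as far as Mir16-1 is concerned, had an r of 0.29, and miR-195a-5p and miR-497a-5p had an r of -0.32, which turned to 0.11 without IL-1β replicate 4. miR-497a-5p ran opposite to miR-15b-5p, with an r of -0.69 over 8 libraries and -0.41 without that library. Of 192 other miRNAs of 50 counts or more on average, those most like miR-497a-5p were miR-673-5p (r = 0.95) and miR-7046-3p (r = 0.95), at 0.77 and 0.74 without IL-1β replicate 4. Those most like miR-16-5p were miR-673-3p (r = 0.80) and miR-411-5p (r = 0.78), and those most like miR-15b-5p were miR-127-3p (r = 0.85) and miR-666-5p (r = 0.85). None of these 6 miRNAs was called for a response to IL-1β (edgeR adjusted p from 0.807 to 0.992).

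Other miRNAs with a like 5′ end were taken as relatives, namely those with bases 2 to 7 of miR-16-5p starting at base 1 or 2 of their own sequence. There were 8, of which 4 had reads. They are shown with bases 2 to 8 in capitals where the motif starts at base 2, and with the motif alone in capitals where it starts at base 1. miR-322-5p has the seed of the family, miR-503-5p has the seed AGCAGCG, which differs in its last base, and in miR-103-3p and miR-107-3p the motif is shifted by 1 base.
miR-322-5p: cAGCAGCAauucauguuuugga
miR-503-5p: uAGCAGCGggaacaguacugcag
miR-103-3p: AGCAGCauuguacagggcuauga
miR-107-3p: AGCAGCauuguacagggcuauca

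miR-322-5p, the mouse counterpart of human miR-424, was the only relative with reads and the seed AGCAGCA, and it added 2.25% to the pool of 11713 reads with that seed. It was at 33.9, 44.04, 31.2 and 28.04 normalized CPM in vehicle replicates 1 to 4 and at 20.8, 30.3, 26.3 and 38.9 in IL-1β replicates 1 to 4, close to the level of miR-15a-5p (log2 fold change -0.25, 95% interval -0.69 to 0.20, edgeR adjusted p = 0.753). miR-103-3p was the most abundant relative, at 175 ± 15.1 and 169 ± 20.5 normalized CPM without and with IL-1β (SD, n = 4), and its log2 fold change was -0.070 (adjusted p = 0.871 in edgeR). miR-107-3p and miR-503-5p had 26 and 10 reads in all. Of the 3 relatives tested, 0 were called and 0 had an unadjusted p under 0.05 in edgeR. The 4 others with the seed AGCAGCA (miR-195b, miR-6342, miR-6353 and miR-6419) were at 0 in all libraries. The opposite arms outside the list, miR-15a-3p, miR-16-1-3p and miR-16-2-3p, had 7, 4 and 5 reads in all. All 5 reads of miR-16-2-3p were in IL-1β libraries, and the miRNA was below the limit for testing.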

How the data were processed

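The authors deposited raw read counts per mature miRNA, with a length for each name. Per the labels and the study's methods, cutadapt was used for trimming, STAR for alignment to mm10 (2.4.2a in the processing notes of the submitters, a later version in the methods) and featureCounts for counting. The methods gave a GENCODE release as the annotation, but the table uses mature miRNA names of the miRBase kind, whose release, like the use of strand and the treatment of reads with several places, was not given in the sources used here. miR-16-5p was listed at 44 nt, the sum over its 2 loci.

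All 8 libraries were grouped by their titles. miRNAs over 1 CPM in at least 4 libraries (564) were tested with edgeR 4.0.16 (R 4.3.3, TMM scaling with factors of 0.932 to 1.04, robust quasi-likelihood fit, group only). Normalized CPM used TMM-scaled totals. The SE was the log2 fold change divided by the square root of F. Ratios were tested by exact permutation (scipy 1.17.1). Libraries of a group differed by more than sampling noise (chi-square per degree of freedom of at least 4.67). Counts per library were 616475 to 1568367, no molecular identifiers were described, and Wilson intervals and floors cover counting error only, whereas intervals of log2 fold changes come from the fit and include the spread between libraries. Described miRNAs were all members, the other arms of their hairpins, relatives by seed and the 2 most correlated miRNAs per abundant 5p member. Members, lists and tests were chosen with earlier results of these data known. The edgeR procedure was tested on simulated data. Alternatives were other scaling, other filters, DESeq2 1.42.0, a factor of unwanted variation, a replicate block and leaving out each library.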

Additional observations from a re-analysis of the deposited data

Results flagged for a closer look

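Among 30 groups of 4 libraries examined (levels of members, relatives and their sum, library totals and ratios), 1 held a library far from the other 3. The log2 ratio of miR-15b-5p to miR-16-5p was -2.10 in vehicle replicate 1 against -2.49 to -2.45 in the other vehicle libraries, a gap that took 0.895 of that group's range. About 1 group in 20 shows such a gap by chance.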

How the results depend on the processing

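The number of members called was 0 under all 15 alternatives, and the lowest adjusted p of any member was 0.242. In the DESeq2 alternative miR-15b-3p and both arms of miR-195a had no adjusted p, so they could not be called there. The log2 fold change stayed below 0 for miR-15a-5p and miR-16-5p and above 0 for miR-195a-5p in every alternative that tested them, at -0.34 to -0.12, -0.15 to -0.046 and 0.61 to 1.36 with single libraries left out. With single libraries left out, it ranged from -0.12 to 0.032 for miR-15b-5p (above 0 without vehicle replicate 1 or IL-1β replicate 2), from -0.73 to 0.25 for miR-15b-3p (above 0 when vehicle replicate 1, vehicle replicate 2, IL-1β replicate 2 or IL-1β replicate 3 was left out), from -0.0100 to 0.28 for miR-195a-3p (below 0 without vehicle replicate 3) and from -0.34 to 0.050 for miR-497a-5p (above 0 without IL-1β replicate 4). The difference in the ratio of miR-15b-5p to miR-15b-3p was 0.13, but -0.041 with 1 in place of 0.5 added to the counts and -0.34 to 0.61 with libraries left out (below 0 in the same 4 cases), a ratio set in part by the added value. With 7 libraries the smallest p for a ratio is 0.0571 and with 4 pairs 0.125, so these could not pass. Over all miRNAs, 11 were called, against 28 with a factor of unwanted variation and 6 to 19 with single libraries left out (6 without vehicle replicate 4, 7 without vehicle replicate 2, 7 without IL-1β replicate 3, 19 without IL-1β replicate 4), and the cause was not tested. With the replicate block 19 were called. Deviations of libraries with the same number correlated at 0.171, -0.345, 0.101 and -0.183 over 195 miRNAs, and 3 of 8 libraries correlated best with their own number. A pairing by number was thus not shown, but with 4 pairs these values cannot decide it. miR-15b-3p and both arms of miR-195a were not tested where a mean of at least 10 counts was asked for. Among the 7 members tested in the main fit, depth limits these 3 most, and miR-497a-3p, at 0 reads, was not tested at all.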
